A study of Mus musculus with 16 samples.

Results

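The Serpin family was taken as all genes whose symbol on the array starts with Serpin, which gave 49 genes read by 60 probes. Of these 22 were tested and 27 counted as not detected. A gene was tested when a probe had a detection p below 0.05 in 4 or more of the 16 arrays, and 22 of the 9095 genes tested in all were therefore Serpin genes. The data are liver RNA of 16 male C57Bl/6Hsd mice aged 10 months, each read on its own Illumina BeadChip array, with 4 mice in each of 4 groups: SHP-/- on western diet, wild type on western diet, SHP-/- on chow and wild type on chow. SHP, the product of Nr0b2, is an orphan nuclear receptor that represses other nuclear receptors. The labels name no cell type or Cre driver for the deletion. Diets were given for 6 months from an age of 4 months, and all mice were fasted overnight before the livers were taken. The study asked how loss of SHP and a western diet alter hepatic gene expression, alone and together.

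Serpins share a fold with an exposed reactive loop. In inhibitory serpins a protease cuts this loop and is trapped in a covalent complex, which uses up the inhibitor. Other serpins have lost this activity and carry hormones or fold collagen. Liver cells secrete most of the serpins of blood plasma, among them the inhibitors of neutrophil elastase, thrombin, plasmin and the first complement component, while clade B serpins stay inside cells and protect them from proteases. The letter after Serpin in each name is the clade.

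Detection split the family by clade. Of 16 clade A genes, the secreted antitrypsin-like group, 13 were tested, whereas of 25 clade B genes 3 were tested (Serpinb1a, Serpinb6a and Serpinb6b). The single genes of clades C, D, G and H and both genes of clade F were tested, and neither gene of clade I was. Of the 27 genes not tested, 19 were detected in 0 arrays, 5 in 1 array and 3 in 2 arrays. The 3 with 2 arrays were Serpinb12, Serpinb8 and Serpinb9d. The clade A genes among the 27 were Serpina1f, Serpina3b and Serpina9. Of the 22 tested genes, 18 were detected in all 16 arrays, Serpinb1a in 15, Serpinb6b in 12, Serpina5 in 8 and Serpinh1 in 4, so the last of these stood near background throughout.

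The mouse has several copies of Serpina1, which encodes alpha-1-antitrypsin, the plasma inhibitor of neutrophil elastase. Copies Serpina1b, Serpina1d, Serpina1a, Serpina1c and Serpina1e follow each other in that order on chromosome 12, and Serpina11, Serpina9 and Serpina12 come next. The 250 bases before the start of each copy are shown because 3 of the copies passed in a comparison and 2 did not, and to show how close the copies are. They are from RefSeq, build GRCm38.p6, which held an entry for 17 of the 22 tested genes. Capitals mark bases that differ from the one most copies hold in an alignment with mafft, at positions where 3 or more copies have a base. Where the most common bases tie, every copy has a capital.
Serpina1a, chr12:103863620-103863869, minus strand: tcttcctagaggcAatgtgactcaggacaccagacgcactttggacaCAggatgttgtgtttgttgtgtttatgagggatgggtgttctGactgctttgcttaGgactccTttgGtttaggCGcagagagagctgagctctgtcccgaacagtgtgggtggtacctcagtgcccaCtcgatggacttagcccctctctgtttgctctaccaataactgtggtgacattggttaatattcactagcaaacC
Serpina1b, chr12:103738190-103738439, minus strand: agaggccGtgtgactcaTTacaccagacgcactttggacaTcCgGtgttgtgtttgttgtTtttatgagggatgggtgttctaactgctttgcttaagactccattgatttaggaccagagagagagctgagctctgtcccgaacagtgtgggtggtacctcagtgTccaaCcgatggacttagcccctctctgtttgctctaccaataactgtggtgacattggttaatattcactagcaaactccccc
Serpina1c, chr12:103904951-103905200, minus strand: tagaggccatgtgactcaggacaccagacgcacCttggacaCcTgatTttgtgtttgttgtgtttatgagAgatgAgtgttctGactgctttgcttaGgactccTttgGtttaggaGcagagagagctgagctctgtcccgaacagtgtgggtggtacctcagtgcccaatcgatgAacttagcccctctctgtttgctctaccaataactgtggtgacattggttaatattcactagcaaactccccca
Serpina1d, chr12:103773634-103773883, minus strand: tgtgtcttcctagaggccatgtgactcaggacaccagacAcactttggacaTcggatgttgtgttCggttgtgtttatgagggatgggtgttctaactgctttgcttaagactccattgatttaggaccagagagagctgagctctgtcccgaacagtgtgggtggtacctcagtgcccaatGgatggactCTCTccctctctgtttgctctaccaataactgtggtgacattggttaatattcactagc
Serpina1e, chr12:103956898-103957147, minus strand: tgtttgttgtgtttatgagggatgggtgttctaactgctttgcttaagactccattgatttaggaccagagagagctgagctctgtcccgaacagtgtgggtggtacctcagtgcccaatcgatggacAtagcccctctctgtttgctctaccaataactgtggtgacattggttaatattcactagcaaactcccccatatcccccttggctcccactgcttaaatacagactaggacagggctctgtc

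Over the bases that align, the 10 pairs of copies were 92.1% to 98.0% identical, and the highest value was for Serpina1b and Serpina1e. Serpina1e had 1 capital and the other copies 8 to 12, some of them at positions where Serpina1e has no base. Its annotated start lies farther downstream than in the other copies, so that its last bases have no partner in their windows. The letters GTTAAT, known as a half-site of the liver factor HNF1 and chosen after the letters were seen, occurred once on either strand in each of the 5 windows, 78 bases before the start in Serpina1e and 16 to 27 in the others, and 6.43% of all 32851 promoter windows hold them. Neither TTCNNNGAA, the letters bound by STAT factors (7.02% of windows), nor AGGTCA, a nuclear receptor half-site (14% of windows), was found on either strand in these 5 windows or in those of Serpina12 and Serpina7. The window of Serpina7 also held GTTAAT once. A match is a description of letters and not a binding site.

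Values below are log2 levels of normalized signal, given in the order of replicates 1 to 4, and changes are log2 differences ± SE from limma with n = 4 mice per group. Passing means an adjusted p (Benjamini-Hochberg, over all 9095 genes) below 0.05. Depth in arrays is limited by their number: the mean raw signal was 261.9 to 384.0 and 43.61% to 51.07% of probes were detected per array. The correlation between 2 arrays was 0.9515 to 0.9912. The single probe of Nr0b2 was detected in 0 arrays, so it did not check the genotype labels. The hepatocyte marker list, which holds Serpinc1, had 8 tested genes with a mean level of 11.40 to 11.68 in knockout and 11.18 to 11.37 in wild type on western diet, which did not overlap, and of 11.37 to 11.63 in knockout and 11.396 to 11.51 in wild type on chow. Of the 8, 3 were higher in knockout on western diet, against 8.82% of all genes: Serpinc1 itself, Alb by 0.58 and Apoh by 0.52. With the diet in wild type 2 fell, against 14.1% of all genes: Cps1 (-0.66) and Ass1 (-0.49). The part of the hepatocyte marker shift in the values of secreted Serpin genes was not tested. Tat and Fabp1 of that list were not detected. In liver tissue, fewer cells of a type and less RNA per cell cannot be told apart.

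On western diet, knockout livers differed from wild type in 12 of the 22 tested Serpin genes, against 19.8% of all genes: 8 were higher (8.82% of all genes) and 4 lower (11% of all genes). The groups did not overlap in 10 of the 22, against 21.2% of all genes. On chow 1 of the 22 passed, against 0.836% of all genes: 1 was lower (0.396% of all genes) and 0 were higher (0.44%). The groups did not overlap in 3 of the 22 on chow (Serpina12, Serpina1e and Serpinf2), against 6.52% of all genes. The median change of the tested Serpin genes was 0.17 on western diet and 0.03 on chow, where that of all genes was 0.03 and 0.01. Because members enter by detection, these counts describe the genes measured and not the whole family. The plot of changes by comparison shows the tested genes side by side.

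**Figure D1:**
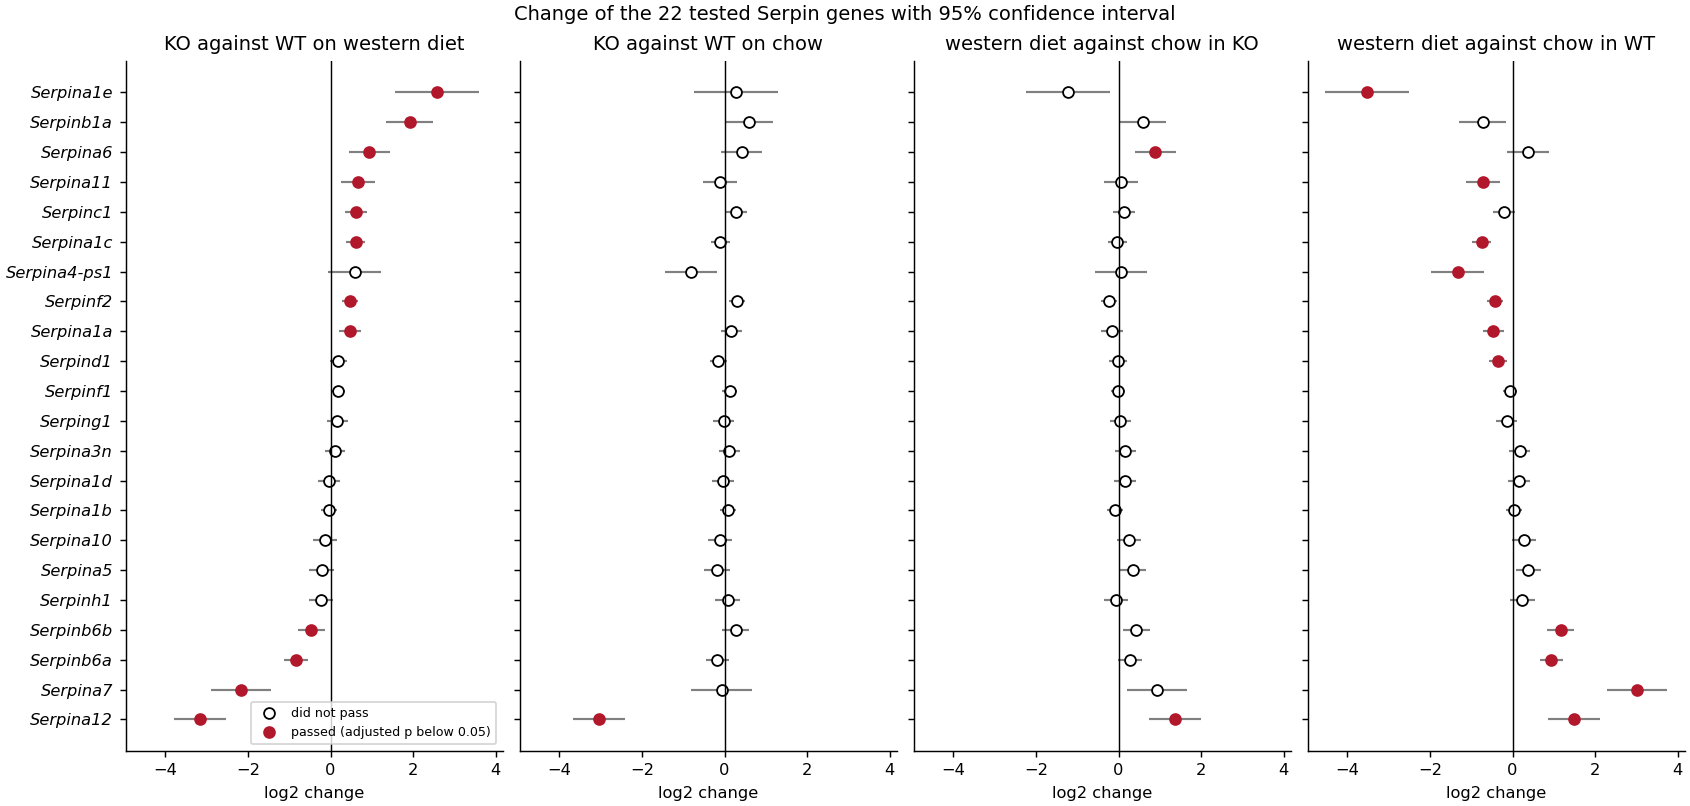
Log2 change (horizontal axis, with 95% confidence interval) of the 22 tested Serpin genes in 4 comparisons; filled points passed at an adjusted p below 0.05. Serpina12 lies near -3 in both genotype comparisons, and 12 genes passed on western diet against 1 on chow.

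Of vaspin and the hormone carriers, Serpina12 and Serpina7 were lower and Serpina6 higher in knockout livers on western diet. Serpina12 encodes vaspin, an adipokine and protease inhibitor. Its level was 7.66, 6.42, 7.65 and 8.0001 in knockout livers on western diet, against 10.54, 10.78, 10.59 and 10.47 in wild type livers on western diet. The chow values were 6.31, 6.52, 5.53 and 5.88 in knockout and 9.67, 9.24, 8.25 and 9.28 in wild type livers. The knockout values lay below all wild type values on both diets. Serpina12 was 8.28-fold lower in knockout on chow (-3.05 ± 0.30, adjusted p = 5.00e-06) and 8.95-fold lower on western diet (-3.16 ± 0.30, adjusted p = 6.77e-07). Western diet against chow raised it in knockout (1.37 ± 0.30, adjusted p = 0.00992) and in wild type (1.49 ± 0.30, adjusted p = 0.00100), with knockout western replicate 2 inside the chow range. The diet by genotype interaction, which is the diet change in knockout minus that in wild type, was -0.11 ± 0.42 with a 95% interval of -1.0002 to 0.7757. A second Serpina12 probe, detected in 5 arrays, differed by -0.80 between knockout and wild type on western diet and by -0.29 on chow. With the mean of both probes the genotype difference was -1.98 on western diet and -1.67 on chow, and the diet change 0.68 in knockout and 0.99 in wild type, and each passed. On chow the genotype difference was -2.39 with normexp (offset 50) and -2.46 with no background correction, so the fold given depends on the processing.

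Serpina7 encodes thyroxine-binding globulin, a carrier of thyroid hormone without inhibitory activity, and lies on the X chromosome. It measured 7.61, 7.0025, 8.50 and 6.53 in knockout livers on western diet, against 9.60, 10.09, 9.65 and 8.96 in wild type livers on western diet. Chow-fed knockout livers had 6.28, 6.46, 5.84 and 7.34, against 6.23, 6.75, 6.96 and 6.28 in chow-fed wild type livers. Wild type livers on western diet stood above all others. Serpina7 was 4.49-fold lower in knockout than in wild type on western diet (-2.17 ± 0.35, adjusted p = 0.000220) and the diet raised it 8.12-fold in wild type (3.02 ± 0.35, adjusted p = 4.00e-06). In knockout the diet change was 0.93 ± 0.35 (adjusted p = 0.110), and it passed without knockout chow replicate 4 (1.22, adjusted p = 0.0436) or knockout western replicate 4 (1.22, adjusted p = 0.0453). The interaction passed (-2.09 ± 0.49, adjusted p = 0.0147). On chow the genotype difference was -0.07 ± 0.35.

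Serpina6 encodes corticosteroid-binding globulin, the carrier of glucocorticoids. Its level was 9.78, 9.9979, 10.60 and 9.95 in knockout livers on western diet, against 8.63, 9.25, 9.04 and 9.64 in wild type livers on western diet. With chow, knockout livers gave 8.88, 8.92, 9.45 and 9.49 and wild type livers 8.14, 9.29, 8.64 and 8.9959. Knockout livers on western diet were above all other livers. Serpina6 was 1.92-fold higher in knockout on western diet (0.94 ± 0.24, adjusted p = 0.00833), and the diet raised it in knockout (0.89 ± 0.24, adjusted p = 0.0270). That diet change did not pass without knockout chow replicate 1 (0.79, adjusted p = 0.0787), knockout chow replicate 2 (0.80, adjusted p = 0.0856) or knockout western replicate 3 (0.72, adjusted p = 0.0808). In wild type the diet change was 0.37 ± 0.24, and the interaction of 0.52 ± 0.34 did not pass (adjusted p = 0.405).

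**Figure D2:**
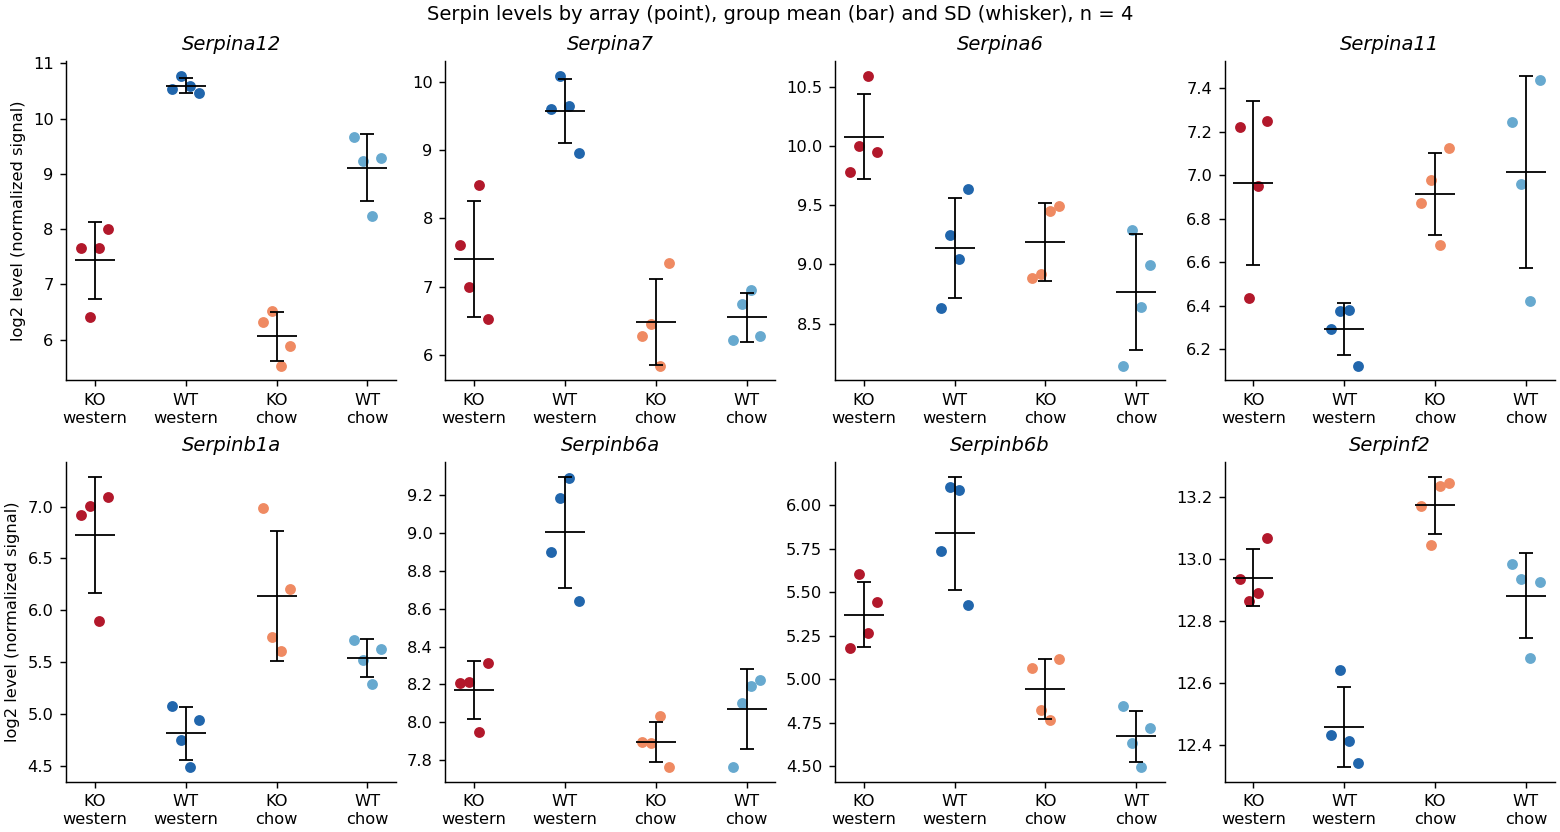
Log2 level of normalized signal (vertical axes, 1 scale per gene) in each of 16 livers for 8 Serpin genes; points are arrays, the long bar is the group mean and the whiskers are the SD (n = 4). Serpina12 is low in all 8 knockout livers, and Serpina7 is high in the 4 wild type livers on western diet.

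Serpina11 and Serpina4-ps1 lie near Serpina12 on chromosome 12. Serpina11 measured 7.22, 6.44, 6.95 and 7.25 in knockout livers on western diet, against 6.29, 6.38, 6.38 and 6.12 in wild type livers on western diet. On chow it was 6.87, 6.98, 6.68 and 7.12 in knockout and 7.25, 6.96, 6.42 and 7.43 in wild type livers. Wild type livers on western diet were below all others. Serpina11 was higher in knockout on western diet (0.67 ± 0.20, adjusted p = 0.0200) and fell with the diet in wild type (-0.72 ± 0.20, adjusted p = 0.00895). The genotype difference did not pass without knockout western replicate 1 (0.58, adjusted p = 0.0638), knockout western replicate 4 (0.58, adjusted p = 0.0694) or wild type western replicate 4 (0.61, adjusted p = 0.0511), and with arrays scaled to equal medians neither difference passed (0.38, adjusted p = 0.193, and -0.43, adjusted p = 0.128). Serpina4-ps1 is a transcribed pseudogene. It measured 5.16, 5.02, 6.57 and 5.41 in knockout livers on western diet, against 5.18, 4.70, 4.86 and 5.09 in wild type livers on western diet. The chow values were 5.34, 5.83, 4.92 and 5.83 in knockout and 6.63, 5.59, 6.84 and 6.10 in wild type livers. The diet lowered it in wild type (-1.33 ± 0.30, adjusted p = 0.00270), where the 4 values on western diet were below all 4 on chow. That change was -0.70 with normexp (offset 50) and -0.74 with no background correction, and passed with both. The interactions of Serpina4-ps1 (1.39 ± 0.43, adjusted p = 0.0572) and Serpina11 (0.77 ± 0.28, adjusted p = 0.101) missed the threshold. Both passed without knockout western replicate 2 (1.57, adjusted p = 0.0402, and 0.95, adjusted p = 0.0334), Serpina4-ps1 also without wild type chow replicate 2 (1.62, adjusted p = 0.0290) and Serpina11 also without wild type chow replicate 3 (0.97, adjusted p = 0.0223).

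The 5 Serpina1 copies were among the brightest probes of the array. Raw signal of Serpina1b stood at 85.6% to 100% of the array's brightest probe and at rank 1 to 12 of 25697, and Serpina1d at 70.7% to 99.9% and rank 2 to 26. Serpina1c stood at 68.5% to 93% in knockout and 85.8% to 98.4% in wild type on chow, and Serpina1e at 82.7% to 94.9% in knockout and 73.4% to 83.3% in wild type on chow. Levels near the maximum left little room for a higher reading, and whether the signal was saturated was not tested. Quantile normalization gives each rank the same level on every array. The normalized levels of such top-ranked probes therefore follow their rank. Serpina1a stood lower, at 19% to 37.8%, as did Serpina1e on western diet, at 14.2% to 61.5% in knockout and 3.32% to 28% in wild type. Probes of close copies can bind each other's transcripts, and no probe sequence was used here, so each value may hold signal of the other copies. The changes of Serpina1c and Serpina1e against chow are taken against these bright levels.

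Serpina1e measured 14.11, 12.61, 14.45 and 14.64 in knockout livers on western diet, against 10.34, 13.43, 11.24 and 10.48 in wild type livers on western diet. Chow-fed knockout livers had 15.08, 15.26, 15.21 and 15.19, against 14.97, 14.74, 14.87 and 15.03 in chow-fed wild type livers. On chow the 8 livers lay within 14.74 and 15.26. On western diet the spread between mice was larger, with an SD of 0.92 in knockout and 1.43 in wild type, against 0.08 in knockout and 0.13 in wild type on chow (n = 4 each). Wild type western replicate 2 stood above the other wild type livers and knockout western replicate 2 below the other knockout livers, so that the genotypes overlapped. Serpina1e fell 11.5-fold with the diet in wild type (-3.53 ± 0.49, adjusted p = 2.89e-05) and was 5.98-fold higher in knockout than in wild type on western diet (2.58 ± 0.49, adjusted p = 0.000862). These SEs and adjusted p-values rest on a spread shared by all groups, which understates the spread between mice on western diet. Without wild type western replicate 2 the diet change in wild type was -4.23 (adjusted p = 6.86e-08) and the genotype difference 3.28 (adjusted p = 2.59e-06). The diet change in knockout was -1.23 ± 0.49 (adjusted p = 0.128) and passed without wild type western replicate 2 (-1.23, adjusted p = 0.0185), and likewise with only the arrays compared (-1.23, adjusted p = 0.0487). The interaction of 2.30 ± 0.69 missed the threshold (adjusted p = 0.0503) and passed without knockout western replicate 2 (2.75, adjusted p = 0.0151) or wild type western replicate 2 (3.0, adjusted p = 0.000684). It also passed with array weights (2.35, adjusted p = 0.0349), equal medians (2.48, adjusted p = 0.0147), normexp or no background correction (2.28, adjusted p = 0.0498 for each) and a strict detection filter (2.30, adjusted p = 0.0473).

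Serpina1c measured 15.10, 15.03, 15.12 and 14.97 in knockout livers on western diet, against 14.43, 14.62, 14.43 and 14.30 in wild type livers on western diet. With chow, knockout livers gave 15.12, 14.79, 15.23 and 15.21 and wild type livers 15.08, 15.26, 15.19 and 15.23. Wild type livers on western diet stood below all the others. Serpina1c was lower there than on chow (-0.75 ± 0.11, adjusted p = 4.94e-05), was higher in knockout on western diet (0.61 ± 0.11, adjusted p = 0.000515), and its interaction passed (0.71 ± 0.15, adjusted p = 0.00885). Serpina1a measured 13.47, 13.41, 13.91 and 13.75 in knockout livers on western diet, against 13.23, 13.40, 12.98 and 13.05 in wild type livers on western diet. On chow it was 13.87, 13.70, 13.85 and 13.74 in knockout and 13.78, 13.45, 13.51 and 13.76 in wild type livers. It was higher in knockout on western diet (0.47 ± 0.12, adjusted p = 0.00964) and lower with the diet in wild type (-0.47 ± 0.12, adjusted p = 0.00736). A second Serpina1a probe differed in the same directions, by 0.70 between genotypes and by -0.59 with the diet in wild type.

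Serpina1b and Serpina1d passed in none of the 5 comparisons. Serpina1b averaged 15.18 ± 0.10 in knockout and 15.21 ± 0.04 in wild type on western diet, with 15.26 ± 0.08 in knockout and 15.18 ± 0.05 in wild type on chow (SD, n = 4). A second Serpina1b probe differed between knockout and wild type by -0.22 on chow and -0.14 on western diet. With the diet that probe differed by 0.17 in knockout and 0.09 in wild type. Serpina1d averaged 15.15 ± 0.09 in knockout and 15.18 ± 0.08 in wild type on western diet, with 14.995 ± 0.19 in knockout and 15.03 ± 0.28 in wild type on chow (SD, n = 4). Normalized levels at these ranks follow rank, which limits their SDs and changes. In wild type the raw signal of Serpina1b was 40389.5 to 45304.9 on western diet, against 34686.2 to 38702.3 on chow, before scaling between arrays. Whether the copies differ from each other in their change was not tested.

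**Figure D3:**
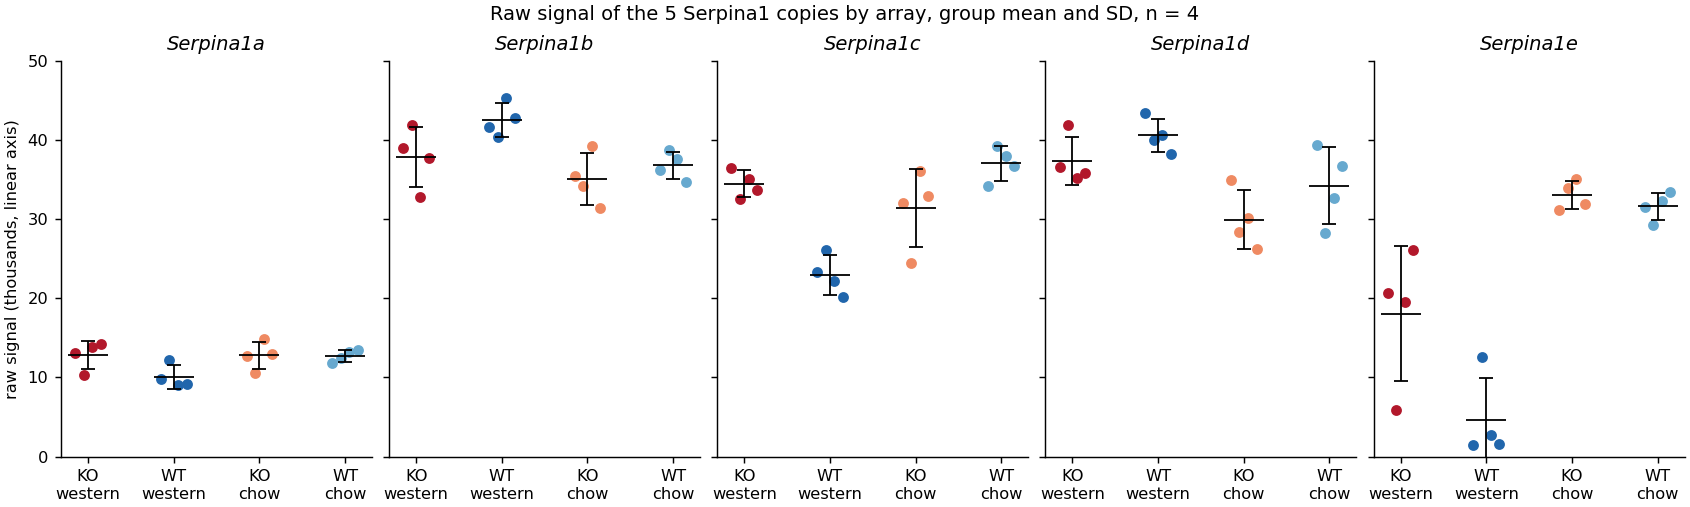
Raw signal (linear axis from 0, before background correction and scaling) of the 5 Serpina1 copies in each of 16 livers; points are arrays, the long bar is the group mean and the whiskers are the SD (n = 4). Serpina1b and Serpina1d lie near the brightest probes in every group, and Serpina1e is lowest in wild type livers on western diet.

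Among the other secreted inhibitors, Serpinc1, Serpinf2 and Serpind1 passed in at least 1 comparison. Serpinc1 encodes antithrombin, the inhibitor of thrombin and factor Xa. Its level was 9.27, 9.22, 9.22 and 9.62 in knockout livers on western diet, against 9.03, 8.62, 8.43 and 8.77 in wild type livers on western diet. The chow values were 8.90, 9.23, 9.32 and 9.36 in knockout and 8.92, 8.82, 8.85 and 9.09 in wild type livers. It was higher in knockout on western diet (0.62 ± 0.13, adjusted p = 0.00202), though not with arrays scaled to equal medians (0.40, adjusted p = 0.0936). A second Serpinc1 probe differed by 0.50 there. With the diet that probe differed by -0.43 in knockout and -0.56 in wild type, against 0.13 in knockout and -0.21 in wild type for the probe used, so the probes disagreed in sign in knockout. With the mean of both, the diet change in wild type passed (-0.38, adjusted p = 0.00898). Serpinf2 encodes alpha-2-antiplasmin, the inhibitor of plasmin. It measured 12.94, 12.86, 12.89 and 13.07 in knockout livers on western diet, against 12.43, 12.64, 12.41 and 12.34 in wild type livers on western diet. Chow-fed knockout livers had 13.17, 13.05, 13.24 and 13.25, against 12.98, 12.94, 12.68 and 12.93 in chow-fed wild type livers. It was higher in knockout on western diet (0.48 ± 0.09, adjusted p = 0.00100) and fell with the diet in wild type (-0.42 ± 0.09, adjusted p = 0.00193). Its other 2 probes pointed the same way, by 0.65 and 0.57 between genotypes and by -0.68 and -0.69 with the diet. With the mean of its probes the diet change in knockout passed as well (-0.34, adjusted p = 0.0258), where the probe used gave -0.23 ± 0.09 (adjusted p = 0.130).

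Serpind1 encodes heparin cofactor II, a further thrombin inhibitor. Its level was 11.16, 11.25, 11.34 and 11.04 in knockout livers on western diet, against 11.11, 10.89, 10.97 and 11.07 in wild type livers on western diet. With chow, knockout livers gave 11.03, 11.08, 11.36 and 11.37 and wild type livers 11.27, 11.45, 11.50 and 11.22. It fell with the diet in wild type (-0.35 ± 0.10, adjusted p = 0.0126), and not with arrays scaled to equal medians (-0.29, adjusted p = 0.176). Serpina10, which inhibits factor Xa with protein Z, Serping1, the C1 inhibitor of complement, Serpinf1, pigment epithelium-derived factor, and Serpina3n, an inducible relative of antichymotrypsin, passed in no comparison, and their largest absolute changes between groups were 0.28, 0.16, 0.18 and 0.17. Serpina5, the protein C inhibitor, and Serpinh1, a chaperone of collagen, also passed in none, with largest absolute changes of 0.38 and 0.24 near background. The 0.38 was the diet change of Serpina5 in wild type (adjusted p = 0.0549), which passed without knockout western replicate 1 or 3 or wild type chow replicate 3 (0.38 to 0.48, adjusted p = 0.0215 to 0.0435), and with the replicate number as a block (0.38, adjusted p = 0.0494) or equal medians (0.49, adjusted p = 0.0118). Serpina5 was detected in 4 wild type and 3 knockout livers on western diet, and in 1 wild type liver and 0 knockout livers on chow. It entered the tests mainly through western-fed livers, so this diet change is not independent of the detection filter.

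Among the intracellular clade B genes, directions differed. Serpinb1a encodes an inhibitor of neutrophil elastase and cathepsin G. It measured 6.91, 7.01, 5.89 and 7.09 in knockout livers on western diet, against 5.07, 4.74, 4.49 and 4.94 in wild type livers on western diet. On chow it was 6.99, 5.74, 5.60 and 6.21 in knockout and 5.71, 5.52, 5.29 and 5.63 in wild type livers. Knockout livers on western diet stood above the wild type ones. Serpinb1a was 3.78-fold higher in knockout on western diet (1.92 ± 0.27, adjusted p = 5.71e-05), and on chow the difference was 0.60 ± 0.27 (adjusted p = 0.422). Serpinb1a was not above background in wild type western replicate 3. The genotype difference on western diet was 1.05 with another background correction (normexp with an offset of 50), 1.11 with none and 2.43 with the authors' processed values, and passed with each. The diet change was 0.59 ± 0.27 in knockout (adjusted p = 0.187), passing without knockout chow replicate 1 (0.88, adjusted p = 0.0412) or knockout western replicate 3 (0.87, adjusted p = 0.0417), and -0.72 ± 0.27 in wild type (adjusted p = 0.0507). The last passed without knockout chow replicate 1, 2 or 3 or knockout western replicate 3 or 4 (-0.73 in each, adjusted p = 0.0198 to 0.0491), and with the replicate number as a block (-0.72, adjusted p = 0.00949), array weights (-0.68, adjusted p = 0.0464), only the arrays compared (-0.72, adjusted p = 0.00371) or a strict detection filter (-0.72, adjusted p = 0.0466).

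The interaction of Serpinb1a was 1.32 ± 0.38 (adjusted p = 0.0433). It missed the threshold when 1 of these 11 arrays was left out, whichever it was: knockout chow replicates 2, 3 and 4, knockout western replicates 1, 2 and 4, wild type chow replicates 1, 2 and 4 and wild type western replicates 2 and 3 (1.14 to 1.34, adjusted p up to 0.0871).

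Serpinb6a, an intracellular inhibitor of cathepsin G, and its relative Serpinb6b ran the other way. Serpinb6a measured 8.21, 8.21, 7.95 and 8.31 in knockout livers on western diet, against 8.90, 9.19, 9.29 and 8.64 in wild type livers on western diet. The chow values were 7.89, 7.89, 8.03 and 7.77 in knockout and 7.76, 8.10, 8.19 and 8.22 in wild type livers. Wild type livers on western diet were above all others. Serpinb6a was lower in knockout on western diet (-0.83 ± 0.13, adjusted p = 0.000217) and rose with the diet in wild type (0.94 ± 0.13, adjusted p = 4.07e-05). Its interaction was -0.66 ± 0.19 (adjusted p = 0.0416), which missed the threshold when 1 of these 10 arrays was left out, whichever it was: knockout chow replicates 1, 2 and 3, knockout western replicates 1, 2 and 3, wild type chow replicates 1 and 2 and wild type western replicates 2 and 3 (-0.67 to -0.56, adjusted p up to 0.0909). With the replicate number as a block it was -0.66 (adjusted p = 0.0506).

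Serpinb6b measured 5.18, 5.60, 5.27 and 5.44 in knockout livers on western diet, against 5.74, 6.11, 6.09 and 5.42 in wild type livers on western diet. Chow-fed knockout livers had 5.07, 4.82, 4.76 and 5.11, against 4.84, 4.63, 4.49 and 4.72 in chow-fed wild type livers. It rose with the diet in wild type (1.17 ± 0.16, adjusted p = 2.06e-05). Only 1 of the 4 wild type livers on chow had it detected, so the size of this rise is uncertain: it was 0.54 with normexp (offset 50), 0.59 with no background correction and 1.35 with the authors' processed values, and passed with each. It was lower in knockout on western diet (-0.47 ± 0.16, adjusted p = 0.0411), where the groups overlapped. That difference did not pass without knockout western replicate 1, 3 or 4 or wild type western replicate 1, 2 or 3 (-0.37 to -0.50, adjusted p up to 0.137), nor with the replicate number as a block (-0.47, adjusted p = 0.0611). The interaction of -0.74 ± 0.22 missed the threshold (adjusted p = 0.05004) and passed without knockout chow replicate 3 (-0.80, adjusted p = 0.0472), knockout western replicate 2 (-0.82, adjusted p = 0.0409) or wild type western replicate 4 (-0.87, adjusted p = 0.0135). It also passed with array weights (-0.78, adjusted p = 0.0377), the mean of detected probes (-0.74, adjusted p = 0.0455), equal medians (-1.0, adjusted p = 0.0109) and a strict detection filter (-0.74, adjusted p = 0.0473).

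Most macrophage markers, like Serpinb6a, Serpinb6b and Serpina7, were lower in knockout on western diet and rose with the diet in wild type. The mean log2 level of 15 tested macrophage and Kupffer cell markers was 7.28 to 7.66 in knockout and 8.67 to 9.47 in wild type livers on western diet, with 6.98 to 7.36 in knockout and 6.82 to 7.40 in wild type livers on chow. Of the 15, 12 were lower in knockout on western diet (11% of all genes) and 13 rose with the diet in wild type (15.5% of all genes). In knockout 4 of the 15 rose with the diet (4.52% of all genes). Neither Serpinb6a (0.28 ± 0.13, adjusted p = 0.217) nor Serpinb6b (0.43 ± 0.16, adjusted p = 0.0993) passed there. Cd5l and Itgax of the list were not detected. The mean of 11 stellate cell and fibrosis markers was 6.23 to 6.56 in knockout and 6.99 to 7.54 in wild type livers on western diet. Of the neutrophil and monocyte list 3 genes were tested. S100a8 (1.46 ± 0.37, adjusted p = 0.00602) and S100a9 (1.11 ± 0.38, adjusted p = 0.0329) rose with the diet in wild type (15.5% of all genes). Between knockout and wild type on western diet 0 of the 3 passed, against 19.8% of all genes. Ngp, Camp, Ltf, Mpo and Ccr2 were not detected. The part of these cell types in the Serpin values was not tested.

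In wild type livers, western diet against chow changed 11 of the 22 tested genes, against 29.6% of all genes: 4 were higher (15.5% of all genes) and 7 lower (14.1% of all genes). The groups did not overlap in 12 of the 22, against 29% of all genes. In knockout livers the same contrast changed 2, Serpina12 and Serpina6, against 7.88% of all genes, both higher (4.52% of all genes), and 0 were lower (3.36%). The groups did not overlap in 3 of the 22, against 14.4% of all genes. The interaction passed in 4 genes, against 7.05% of all genes: Serpina1c and Serpinb1a (2.29% of all genes upward) and Serpina7 and Serpinb6a (4.76% downward). The numbers of genes passing in each genotype are not a test of their difference, which the interaction gives.

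**Figure D4:**
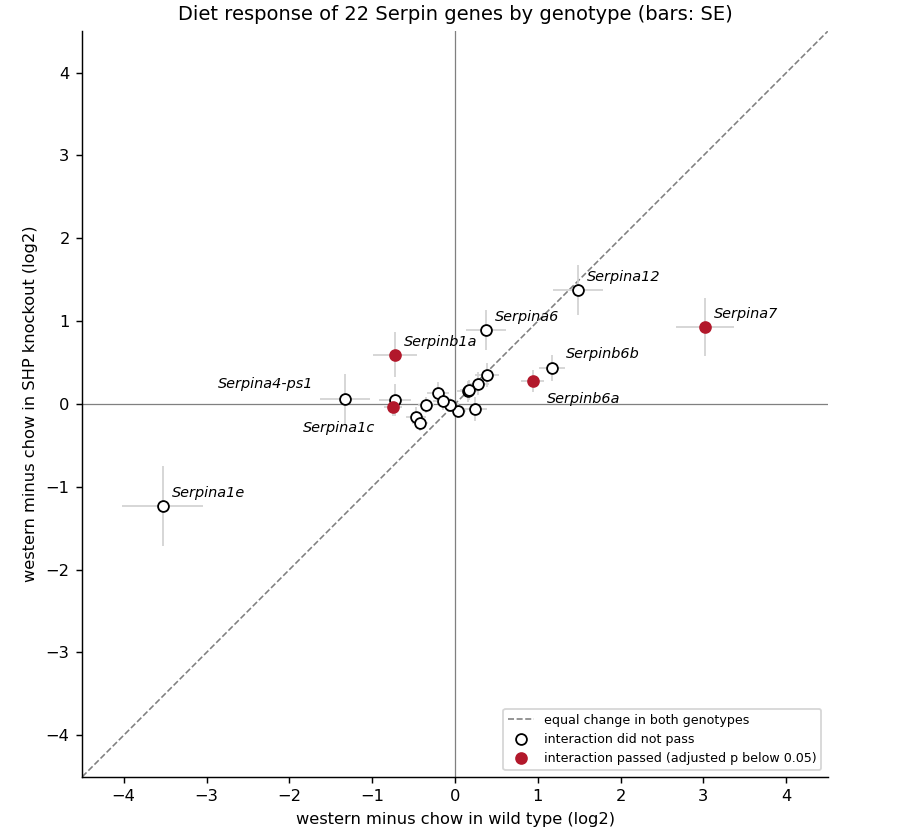
Western diet minus chow in wild type (horizontal axis) and in SHP knockout (vertical axis), log2 change with SE, for the 22 tested Serpin genes; the dashed line marks equal change and filled points are the 4 genes whose interaction passed. Serpina12 lies close to the line, at 1.49 in wild type and 1.37 in knockout.

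Agt, angiotensinogen, belongs to the serpin family by structure and carries no Serpin symbol. It averaged 11.30 ± 0.20 in knockout and 11.02 ± 0.10 in wild type on western diet, with 11.62 ± 0.22 in knockout and 11.50 ± 0.18 in wild type on chow (SD, n = 4). It fell with the diet in wild type (-0.49 ± 0.12, adjusted p = 0.00444), and in knockout the change was -0.32 ± 0.12 (adjusted p = 0.108).

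Proteases and cofactors that serpins act on or with were listed beside the family, 22 of them tested. On western diet 9 were higher (8.82% of all genes) and 4 lower (11% of all genes) in knockout, with a median of 0.14. The higher ones included F11 (1.16 ± 0.165, adjusted p = 6.45e-05), coagulation factor XI, F7 (1.00 ± 0.11, adjusted p = 4.65e-06), coagulation factor VII, and the lower ones Prss8 (-0.89 ± 0.25, adjusted p = 0.0178), prostasin, and the lysosomal protease Ctss (-0.88 ± 0.21, adjusted p = 0.00648). On chow 0 of the 22 passed in either direction, against 0.836% of all genes. With the diet in wild type 4 rose (15.5% of all genes) and 8 fell (14.1% of all genes), with a median of -0.13. Among them were Ctss (1.82 ± 0.21), Plau, the urokinase plasminogen activator (1.06 ± 0.17), Ctsb (0.99 ± 0.11) and Klkb1, plasma kallikrein (-0.78 ± 0.11). Ctss is also counted among the macrophage and Kupffer cell markers above. In knockout 3 rose (4.52% of all genes) and 0 fell (3.36%) with the diet. The interaction passed upward in 5 (2.29% of all genes) and downward in 2 (4.76%).

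Serpina1e is known as a male-biased liver gene, and 15 other male-biased genes were tested. On western diet 13 were higher (8.82% of all genes) and 0 lower (11%) in knockout (median 1.10), led by the steroid reductase Hsd3b5 (5.79 ± 0.48). On chow 0 passed, against 0.836% of all genes. With the diet 8 fell (14.1% of all genes) and 0 rose (15.5%) in wild type (median -0.81). In knockout 2 rose (4.52% of all genes) and 0 fell (3.36%). The interaction of these genes passed upward in 8 (2.29% of all genes) and downward in 0 (4.76%), with a median of 1.14. Of 9 tested genes of the growth hormone and STAT5b axis, 2 were higher in knockout on western diet (8.82% of all genes), Igfals (0.90 ± 0.18) and Igf1 (0.51 ± 0.13). Both fell with the diet in wild type, with changes of -0.97 ± 0.18 and -0.70 ± 0.13, as did Hnf4a (-0.47 ± 0.11), against 14.1% of all genes. In knockout the diet raised Ghr (0.80 ± 0.12), against 4.52% of all genes, and lowered Hnf4a (-0.38 ± 0.11), against 3.36%. The interaction passed upward in Ghr and Igf1, against 2.29% of all genes.

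Of 24 tested acute phase genes, 1 was higher (8.82% of all genes) and 8 lower (11% of all genes) in knockout on western diet (median -0.13). With the diet in wild type 8 rose (15.5% of all genes) and 4 fell (14.1% of all genes), with a median of 0.24. Lcn2, lipocalin 2, was lower in knockout on western diet (-2.26 ± 0.35, adjusted p = 0.000141) and rose with the diet in wild type (3.18 ± 0.35, adjusted p = 2.11e-06), and Saa3, a serum amyloid, was lower in knockout (-2.09 ± 0.41, adjusted p = 0.00109). The acute phase serpin Serpina3n differed by 0.11 ± 0.12 between knockout and wild type on western diet. Other Serpina3 genes beside it on the chromosome, such as Serpina3k and Serpina3m, are not among the symbols on the array. Whether the Serpina3n probe holds their signal was not tested.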

How the data were processed

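Liver RNA (1 µg per mouse) was labelled with biotin and read on Illumina BeadChips. The deposited signal intensity is, per the file headers, non-normalized, and a detection p-value stands beside each signal. Per the submitters' processing notes the authors used BeadStudio (version not given in the sources used here). The series table holds a second linear intensity that the authors deposited. Its values below 0 and near-equal quantiles across arrays point to background subtraction and a scaling between arrays, whose method was not checked.

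Signal was background-corrected and quantile-normalized with neqc of limma 3.58.1 in R 4.3.3 (offset 16), giving log2 levels from the deposited intensity. Of 25697 probes 13196 were kept (detection p below 0.05 in 4 or more of 16 arrays), 12421 of them named by the platform annotation. All 49 Serpin symbols matched the mouse gene table by Entrez ID. The brightest kept probe stood for a gene, which gave 9095. The 4 group means were fitted in 1 model with lmFit and eBayes (intensity trend, 12 residual degrees of freedom, two-sided) and adjusted p-values are from limma. The fit was tested on simulated data in 20 draws, with the same spread in all groups, so a spread that differs between groups, as in Serpina1e, was not covered. Members and lists were chosen with earlier results of these data known. Members that passed were named with every array's value, and of the lists at most 4 genes per comparison. Replicate numbers were not treated as pairs. The correlation of same-numbered deviations was -0.17 to 0.19 and above 0.1 in 3 of 16 pairs, which cannot exclude a shared effect. Alternatives are in the closing section. Alignment used mafft 7.526, and plots matplotlib 3.10.9 on Python 3.11.15.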

Additional observations from a re-analysis of the deposited data

Results flagged for a closer look

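Among 88 groups of 4 arrays (22 genes in 4 groups), 3 held a value whose gap to the nearest other was above Dixon's 95% critical value, where chance gives about 1 in 20. Serpina3n was 13.09 in wild type western replicate 3, against 12.78 to 12.82 in the other 3. Serpinb1a was 5.89 in knockout western replicate 3, against 6.91 to 7.09. Serpinc1 was 9.62 in knockout western replicate 4, against 9.22 to 9.27.

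The change with western diet differed between knockout and wild type, by the interaction test, in 4 genes. It was 0.71 for Serpina1c (adjusted p = 0.00885), -2.09 for Serpina7 (adjusted p = 0.0147), 1.32 for Serpinb1a (adjusted p = 0.0433) and -0.66 for Serpinb6a (adjusted p = 0.0416). The interaction of Serpinb1a missed the threshold in 11 of the 16 fits that leave out 1 array, and that of Serpinb6a in 10 of them.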

How the results depend on the processing

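Serpina12's genotype difference on chow passed in every setting tried, with sizes that varied as given in the report, and no member's change that was called turned direction. Over the settings other than leaving out an array, 278 gene values passed both as reported and in the setting. A further 18 passed only as reported and 18 only in the setting, and values that passed in neither were not counted. With western diet against chow in knockout, 1 gene was lower with the mean of detected probes and with only the arrays compared, against 0, and 1 was higher with the authors' processed values, against 2. For the interaction, the authors' values gave 1 higher and 0 lower, no detection filter 1 and 1, against 2 and 2. Replicate numbers as a block left 1 gene lower in the interaction. Leaving out 1 array gave 7 to 8 higher and 3 to 4 lower genes in knockout on western diet, 4 to 5 and 7 to 8 with the diet in wild type, 1 to 3 and 0 to 1 with the diet in knockout, and 1 to 4 and 1 to 3 for the interaction. The interactions of Serpina1e and Serpinb6b, not called, passed in 5 and 4 settings, as given in the report. Serpinb1a's interaction also missed with the authors' values (adjusted p = 0.0928), without a filter (0.0750), and with normexp (0.0766) or quantile scaling alone (0.0748). Serpinb6a's missed with array weights (0.0504), the authors' values (0.0731), equal medians (0.0786) and no filter (0.0614), and Serpina7's with the authors' values (0.0699). Serpina6's diet change in knockout missed with the authors' values (0.0713), and Serpinb6b's genotype difference without a filter (0.112) and with only the arrays compared (0.0870). With equal medians, the median change of all genes was -0.16, against 0.03, in knockout on western diet (208 higher and 1691 lower genes, against 802 and 997), 0.14, against -0.03, with the diet in wild type (2082 and 290, against 1407 and 1286), -0.11, against 0.01, for the interaction (75 and 503, against 208 and 433) and 0.05, against -0.01, with the diet in knockout (297 and 50, against 411 and 306). The split on chow was then 21 and 39, against 40 and 36. Over all genes, the count on chow was 48 to 124 (76 as reported) and with the diet in knockout 347 to 769 (717). The causes were not tested. Genes near background, such as Serpinh1 and Serpina5, limit what small changes could be read.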
